A study of Mus musculus with 31 samples.

Results

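Open chromatin was followed over time at 9 loci of mouse regulatory T cells (Tregs): Gad2, Gm18726, Gm43674, Ppm1l, Lrpap1, Tspan14, Thap4, Babam2 and Fcmr. They were chosen by their read counts at 16 h, as loci with large rises in accessibility after an injection of a fusion protein of interleukin-2 and its receptor chain CD25. The deposited peak table assigned 142 of its 104979 peaks to these genes, in 83 separate regions: 4 peaks to Gad2, 1 to Gm18726, 39 to Gm43674, 15 to Ppm1l, 13 to Lrpap1, 25 to Tspan14, 28 to Thap4, 11 to Babam2 and 6 to Fcmr. Of the 142 peaks, 52 were labelled intron, 56 intergenic and 26 promoter, and 8 carried another label. At each gene, the peak with the lowest p between fusion protein and PBS at 16 h is called its leading peak. That choice used the 16 h libraries, so values, fitted changes and calls at 16 h only describe how the loci were chosen, and nothing rests on them as a test. The tests that bear on these loci use other times, though earlier results of these data were known when the loci were chosen.

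The assay was ATAC-seq, in which a transposase cuts into accessible DNA and reads are counted over peaks of insertions. Tregs came from spleens of C57BL/6 mice that all carried the RFP-FoxP3 reporter, given as RFP-FoxP3+ in the labels. The labels describe neither the reporter's construct nor the age of the mice, the sort gate or any pooling of animals. The groups were control PBS (100 µL), mIL-2 (5 µg, called IL2 here) and the mIL-2/CD25 fusion protein (20 µg, called FP here). PBS, IL2 and FP had 3 libraries each at 0.75 h and 3 each at 16 h. PBS and FP had 3 libraries each at 72 h, and 3 and 4 at 168 h, for 31 libraries in 10 groups. The identifiers give the samples of a time point a date of their own, so time and date cannot be told apart, and treatments are compared within a time. Whether the libraries came from separate animals is not stated in the labels, so p-values measure the spread between these samples, which may be technical.

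Interleukin-2 acts through a receptor whose alpha chain, CD25, is abundant on Tregs, and these cells depend on it for survival. The receptor activates JAK kinases, which phosphorylate the transcription factor STAT5. STAT5 dimers bind a palindrome with the letters TTCNNNGAA, and many of the sites they occupy in T cells lie in introns or between genes. Gad2 encodes a glutamate decarboxylase that makes the neurotransmitter GABA and is best known from neurons and pancreatic beta cells.

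Library totals ran from 7.39 to 59.6 M counts (M, mega), and both libraries of lowest total were at 168 h, PBS replicate 1 and FP replicate 2. Between replicates, the coefficient of variation fitted by edgeR (biological part) was 43.3% at 0.75 h, 41.0% at 16 h, 38.6% at 72 h and 48.0% at 168 h. Of 8 T cell and Treg markers, all 8 had a promoter peak in the table, and the summed CPM (counts per M, after TMM scaling) of their strongest promoter peaks ran from 62.0 to 136 over the libraries. Of 8 B cell markers, 4 had a promoter peak (Cd79a, Pax5, Ebf1 and Cd22) while Cd79b, Ms4a1 and Blk were among those with none. The B cell sum ran from 3.85 to 15.6 CPM. The NK cell sum, from 2 of 4 markers, ran from 0.560 to 6.32 CPM. The CD8 T cell list had a promoter peak at Cd8b1 only, at 4.61 to 12.9 CPM. Its median over the libraries, 8.64 CPM, was above those of Cd3e (7.32), Cd3g (4.22), Tnfrsf18 (3.48) and Cd4 (1.35). It was below those of Foxp3, Il2ra, Ctla4 and Ikzf2. The myeloid sum, from 3 of 7 markers, ran from 13.6 to 25.0 CPM. The lists differ in their number of promoter peaks, so their sums cannot be compared with each other.

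None of the 9 leading peaks was labelled promoter, and they lay 1306 bp (Fcmr) to 74898 bp (Babam2) from the nearest annotated start site of their gene. Coordinates are on GRCm38, and positions in genes are from GENCODE M21. The Gad2 peak (chr2:22679731-22680633) lay in intron 12 of a transcript with 16 exons, 56427 bp from the start site. The Ppm1l peak (chr3:69382704-69383399) lay in intron 1, the Thap4 peak (chr1:93735981-93736584) in intron 2 and the Babam2 peak (chr5:31860281-31860907) in intron 8. The Thap4 peak also lay in an intron of Gm10550. The Fcmr peak (chr1:130879637-130880265) was deposited with the label 3' end and lay in intron 7 of the 8-exon transcript. The Tspan14 peak (chr14:40904865-40905582), also labelled 3' end, lay 862 bp past the annotated end of the gene, in no annotated gene. Its nearest start site was that of Sh2d4b, 11599 bp away. The peaks of Gm18726 (chr12:32735233-32735762), Gm43674 (chr3:21965612-21965920) and Lrpap1 (chr5:35166001-35166601) were intergenic, 25072, 32548 and 60235 bp from the start sites of those genes. Gm18726 is annotated as a processed pseudogene and Gm43674 as a lincRNA. No leading peak overlapped an annotated exon or UTR. The gene names come from the deposited table and say which gene lay near, not which gene a peak acts on.

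The palindrome TTCNNNGAA, which reads the same on both strands, was present in all 9 leading peaks. It was present in 13.3% of all peaks, in 17.9% of the 49239 peaks within the same range of widths (309 to 903 bp), and in 23.0% of 74 other regions of these genes. Within the 300 bp around the peak centre, 8 of 9 leading peaks held it, against 10.6% of all peaks. The Tspan14 peak held 4 matches, and the Babam2 and Fcmr peaks held 2 each. Of same-width peaks, 2.34% held 2 or more and 0.0264% held 4 or more. Other motifs were found in fewer leading peaks, on either strand: AP-1 (TGANTCA) in 3 of 9 against 17.8% of same-width peaks, RUNX (TGTGGTT) in 3 against 16.7%, the STAT palindrome with 1 more N in 2 against 13.6%, and ETS (CAGGAAGT) in 1 against 12.3%. TCF/LEF (CTTTGAA) and NFAT (TGGAAAA) matched in 2 each, against 12.9% and 11.4%. No match to the NF-kB motif or to the CTCF core motif was found, each sought by 1 strict pattern. These shares describe letters in the reference sequence and are no measure of binding.

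Reference sequence around the palindromes is shown for 6 leading peaks, on the plus strand of GRCm38 and 5′ to 3′, with the palindromes in capitals. The first 5 belong to the peaks that passed the test against PBS 0.75 h after IL2, and Lrpap1 had the smallest change there.

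Gad2, chr2:22680013-22680311: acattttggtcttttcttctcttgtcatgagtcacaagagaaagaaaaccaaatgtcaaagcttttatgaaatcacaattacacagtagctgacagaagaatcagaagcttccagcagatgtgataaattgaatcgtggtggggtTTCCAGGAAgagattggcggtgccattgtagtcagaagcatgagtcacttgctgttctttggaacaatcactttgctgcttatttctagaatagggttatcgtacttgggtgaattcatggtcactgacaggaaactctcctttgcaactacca
Tspan14, chr14:40905110-40905392: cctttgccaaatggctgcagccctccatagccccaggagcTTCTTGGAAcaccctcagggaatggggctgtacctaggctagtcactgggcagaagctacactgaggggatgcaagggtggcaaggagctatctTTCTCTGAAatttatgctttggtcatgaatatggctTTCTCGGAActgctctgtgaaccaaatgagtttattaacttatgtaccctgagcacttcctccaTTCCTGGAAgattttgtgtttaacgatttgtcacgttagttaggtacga
Fcmr, chr1:130879822-130880012: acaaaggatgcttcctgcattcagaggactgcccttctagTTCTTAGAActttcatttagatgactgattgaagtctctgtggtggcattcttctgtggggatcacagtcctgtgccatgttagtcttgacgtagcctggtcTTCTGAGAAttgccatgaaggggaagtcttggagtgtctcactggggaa
Ppm1l, chr3:69383111-69383199: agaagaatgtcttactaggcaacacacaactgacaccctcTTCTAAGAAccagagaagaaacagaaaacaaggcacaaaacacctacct
Gm43674, chr3:21965745-21965833: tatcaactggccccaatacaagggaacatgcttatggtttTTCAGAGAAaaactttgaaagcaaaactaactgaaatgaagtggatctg
Lrpap1, chr5:35166126-35166214: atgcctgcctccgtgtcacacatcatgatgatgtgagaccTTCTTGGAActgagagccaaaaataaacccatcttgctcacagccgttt

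The 9 bases that matched differed between loci in the 3 inner positions. The Gad2 match was TTCCAGGAA and lay 20 bp from the peak centre. The 4 Tspan14 matches, TTCTTGGAA, TTCTCTGAA, TTCTCGGAA and TTCCTGGAA, started 94, 36 and 64 bp apart. The Lrpap1 match, TTCTTGGAA, had the same letters as the first of these. The 2 Fcmr matches, TTCTTAGAA and TTCTGAGAA, started 102 bp apart. Of the leading peaks not shown in full, Gm18726 held TTCCTGGAA, Thap4 held TTCTGGGAA, and Babam2 held TTCATTGAA and TTCTAGGAA.

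**Figure D1:**
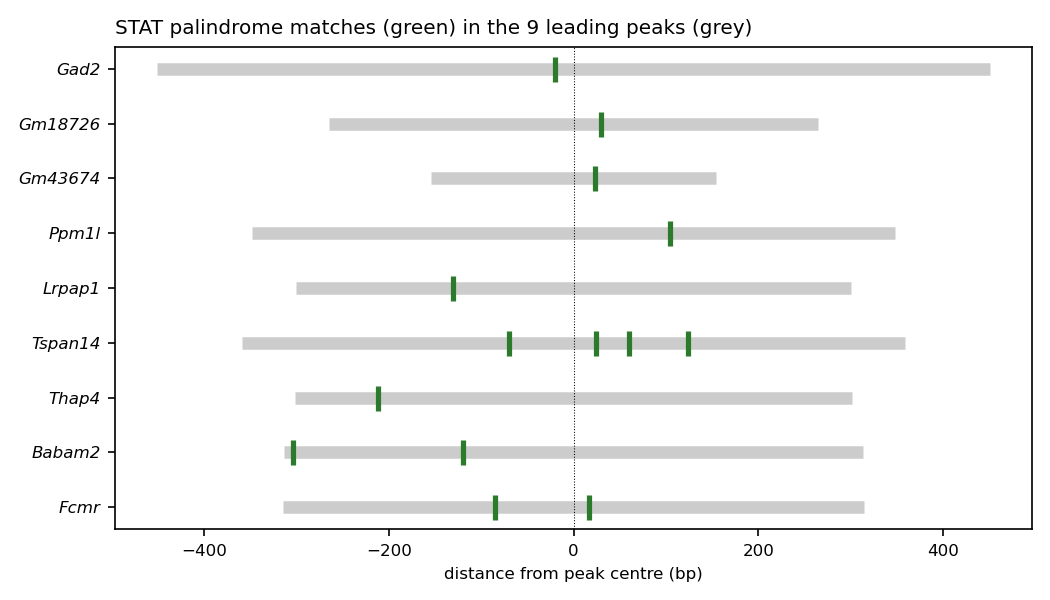
Positions of TTCNNNGAA matches (green ticks) along the 9 leading peaks (grey bars), in bp from each peak's centre. All 9 peaks hold at least 1 match and Tspan14 holds 4; the matches lie between -131 and 124 bp, except those of Thap4 (-212 bp) and the first of Babam2 (-304 bp).

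The levels at 16 h, from which the loci were chosen, were as follows. The Gad2 peak was at 2.22, 3.62 and 2.18 CPM in the PBS libraries, at 4.05, 4.17 and 4.17 CPM in the IL2 libraries and at 29.7, 21.3 and 31.7 CPM in the FP libraries. The lowest FP library was thus above every IL2 and PBS library, and the FP mean of 27.6 ± 5.50 CPM (SD, n = 3) was 10.3-fold the PBS mean. Tspan14, which encodes a tetraspanin that escorts the protease ADAM10, had its leading peak at 2.02 to 2.57 CPM in PBS, 0.700 to 2.98 in IL2 and 14.1, 14.9 and 13.3 CPM in FP. The 3 FP libraries lay close together there, while the IL2 libraries overlapped those of PBS. Ppm1l, which encodes a protein phosphatase of the PP2C family, was at 0.335 to 1.58 CPM in PBS, 1.74 to 2.73 in IL2 and 5.57 to 11.1 in FP. Thap4, which encodes a protein with a zinc-binding THAP domain, was at 0.713 to 1.75, 1.87 to 3.11 and 4.22 to 8.35 CPM. At both genes the IL2 libraries lay between PBS and FP without overlap.

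The pseudogene locus Gm18726 showed the same order, at 0.388 to 0.673 CPM in PBS, 1.38 to 2.83 in IL2 and 4.33 to 7.70 in FP. At the lincRNA locus Gm43674, PBS libraries were at 0.435, 0.134 and 1.50 CPM and overlapped IL2 (0.857 to 1.62), while FP libraries were at 5.14 to 6.91 CPM. The lowest PBS value there was 2 counts, so its fold change of 8.72 rests on few reads. The PBS libraries held 6 to 17 counts at Gm18726 and 5 to 40 at Ppm1l, so folds there rest on few reads as well. Lrpap1, which encodes a chaperone of LDL receptor family proteins, was at 2.88 to 3.64 CPM in PBS, 2.28 to 3.25 in IL2 and 7.31 to 10.1 in FP. Babam2, which encodes a scaffold subunit of the BRCA1-A and BRISC deubiquitinase complexes, was at 0.738 to 2.1, 0.496 to 0.994 and 5.19 to 5.93 CPM. Fcmr, which encodes the Fc receptor for IgM, was at 1.27 to 2.77, 0.294 to 1.40 and 4.79 to 8.76 CPM. At Babam2 and Fcmr the IL2 mean was 0.495-fold and 0.454-fold the PBS mean, with overlapping libraries.

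FP libraries lay wholly above PBS at all 9 leading peaks, as they did at 6.88% of all tested peaks, and wholly above IL2 at all 9, against 5.7%. FP means were 2.74-fold (Gm18726) to 8.18-fold (Babam2) the IL2 means. In the fit across 100771 tested peaks (edgeR quasi-likelihood test, called where the Benjamini-Hochberg adjusted p was under 0.05), 6 of the 9 were called higher, against a background of 0.114%. Thap4 was the called locus of smallest change, at 2.56 ± 0.45 (SE) on the log2 scale. Babam2 at 1.99 ± 0.46, Fcmr at 1.84 ± 0.46 and Lrpap1 at 1.36 ± 0.33 were not called. The count was 3 without FP library c1, 8 in a fit of the FP and PBS libraries alone and 9 with DESeq2's Wald test. Since these contrasts chose the loci, the counts say how the members were picked. The B cell marker sum was 7.25 to 12.9 CPM in the FP libraries, wholly above PBS (4.96 to 6.81), and its part in the values at these loci was not tested. The myeloid sum, from 3 of 7 markers, overlapped between FP (17.4 to 22.9) and PBS (14.6 to 20.4). Over 23 tested peaks of the myeloid markers the median log2 fold change was 0.60, and over 15 of the NK cell markers 0.54, against -0.02 over all peaks, with none called. The promoter of Gata1, an erythroid transcription factor, was at 3.51 to 9.07 CPM in FP and 2.08 to 3.59 CPM in PBS. Over 31 tested peaks of the erythroid marker list the median was 0.07, with a range of -1.23 to 1.44 and none called. The part of these cell types was not tested either. In such bulk samples, more cells with an open site and more open sites per cell cannot be told apart.

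**Figure D2:**
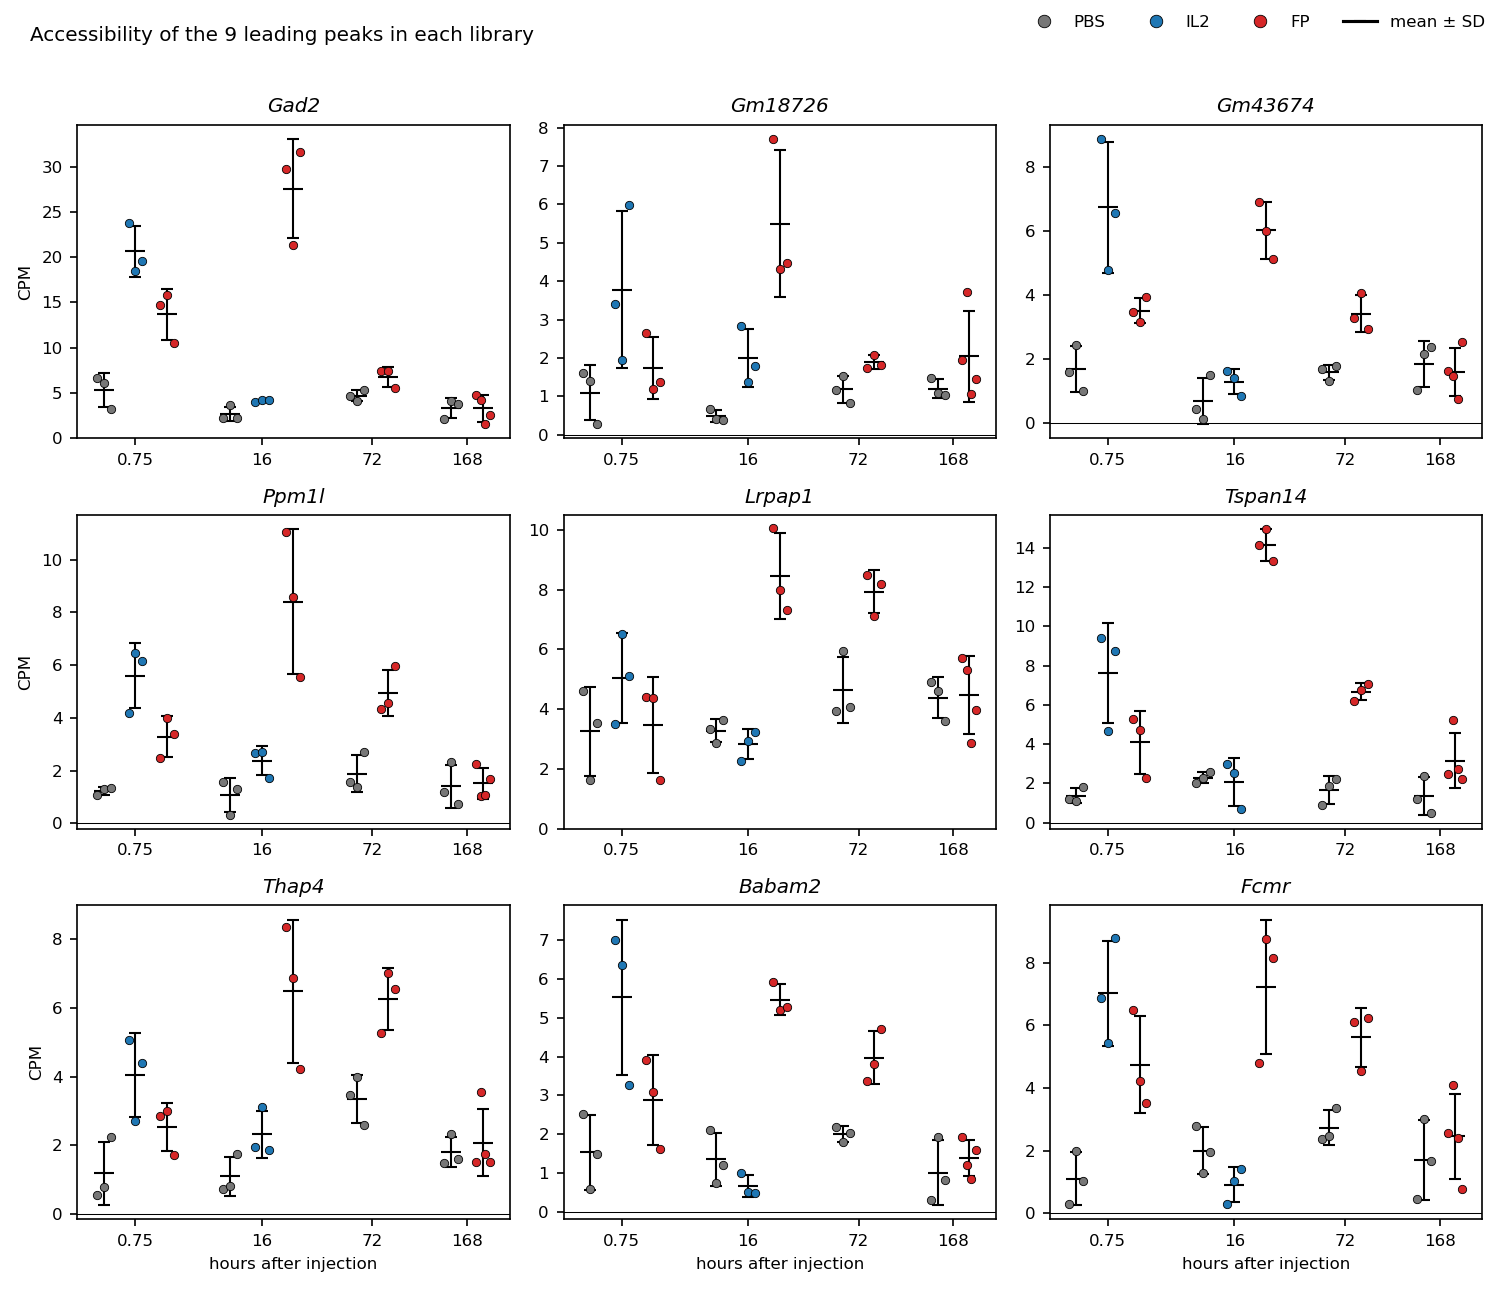
CPM of the 9 leading peaks (y axes, a scale per panel) by hours after injection (x axes); each point is a library (grey PBS, blue IL2, red FP) and black bars are the mean ± SD. IL2 means were above PBS at all 9 at 0.75 h, and at 16 h the FP libraries stood above all IL2 and PBS libraries.

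The rule that chose the loci did not use the 0.75 h libraries, though earlier results of these data were known at that choice. At 0.75 h, 5 of the 9 leading peaks rose after IL2. Gad2, Gm43674, Ppm1l, Tspan14 and Fcmr rose by 1.95 to 2.69 on the log2 scale, while 0.488% of 100468 tested peaks were called higher. At Gad2 the PBS libraries were at 6.66, 6.12 and 3.21 CPM and the IL2 libraries at 23.8, 18.5 and 19.6 CPM. The groups were far apart, and the peak rose by 1.95 ± 0.29 (adjusted p = 0.0029, edgeR quasi-likelihood test). At Fcmr the PBS libraries were at 0.306, 1.97 and 1.02 CPM and the IL2 libraries at 6.87, 5.43 and 8.79 CPM. This was the largest of the 9 changes, 2.69 ± 0.50 (adjusted p = 0.0144). Tspan14 was at 1.23, 1.11 and 1.81 CPM in PBS and at 9.41, 4.68 and 8.71 CPM in IL2, and rose by 2.46 ± 0.42 (adjusted p = 0.0079). Ppm1l was at 1.07, 1.30 and 1.35 CPM in PBS and at 4.18, 6.47 and 6.18 CPM in IL2, and rose by 2.18 ± 0.38 (adjusted p = 0.0103). Gm43674 was at 1.61, 2.46 and 1.02 CPM in PBS and at 8.88, 4.80 and 6.55 CPM in IL2, and rose by 1.99 ± 0.39 (adjusted p = 0.0230). At each of these 5 loci the lowest IL2 library was above the highest PBS library.

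The other 4 leading peaks were not called after IL2 at 0.75 h. Babam2 was at 0.578 to 2.53 CPM in PBS and 3.26 to 6.99 in IL2 (1.84 ± 0.50, adjusted p = 0.169). Thap4 was at 0.536 to 2.23 CPM in PBS and 2.70 to 5.06 in IL2 (1.78 ± 0.51, adjusted p = 0.227). Gm18726 was at 0.279 to 1.61 CPM in PBS and 1.94 to 5.99 in IL2 (1.78 ± 0.59, adjusted p = 0.395). In these 3 the groups did not overlap. Lrpap1 had overlapping groups, at 1.64 to 4.60 CPM in PBS and 3.50 to 6.51 in IL2 (0.62 ± 0.44). IL2 libraries were therefore wholly above PBS at 8 of 9 leading peaks, against 6.37% of all tested peaks. The median log2 fold change was 1.95 over the 9 leading peaks and -0.02 over all tested peaks.

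Single libraries weighed on the count of 5. It was 1 without IL2 replicate 3 or without PBS replicate 1, and 2 without IL2 replicate 1 or without PBS replicate 3. Gad2 passed in all 17 alternative fits of this comparison. Of 31 tested peaks of the erythroid marker list, 1 was called higher with IL2 at this time, at the 3' end of the globin gene Hbb-bt (2.18 ± 0.29, adjusted p = 0.00179). The list's median was -0.32, against -0.02 over all peaks. The Gata1 promoter was at 4.18 to 6.71 CPM in IL2, wholly above PBS (1.86 to 3.29). The part of erythroid signal in the rises at these loci was not tested. B cell sums overlapped, at 5.00 to 5.91 CPM in IL2 and 3.85 to 6.32 CPM in PBS.

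After FP at 0.75 h all 9 leading peaks had a log2 fold change above 0, and none was called. Over all tested peaks, 0.00199% were called higher. The log2 fold changes against PBS ran from 0.10 ± 0.44 at Lrpap1 to 2.13 ± 0.49 at Fcmr, with a median of 1.11. Gad2 was at 14.7, 15.9 and 10.5 CPM in FP, wholly above PBS (1.36 ± 0.28, adjusted p = 0.205). Fcmr was at 6.49, 4.24 and 3.51 CPM, also above every PBS library (adjusted p = 0.312). FP lay wholly above PBS at 5 of 9 leading peaks (Gad2, Gm43674, Ppm1l, Tspan14 and Fcmr), against 4.81% of all tested peaks. At an unadjusted p under 0.05, 6 of 9 were higher, against 2.09%. DESeq2 called Gad2 and Fcmr (log2 fold changes of 1.35 and 2.12; adjusted p = 0.00323, adjusted p = 0.00780). With a replicate block, edgeR called 1 of the 9, Gad2.

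FP and IL2 were also compared with each other at 0.75 h, at the doses of 20 µg and 5 µg. All 9 log2 differences, FP minus IL2, were below 0, from -1.11 at Gm18726 to -0.53 at Lrpap1, but none was called (edgeR; 0% of tested peaks were called lower). At an unadjusted p under 0.05, 4 of 9 were lower (Gad2, Gm43674, Ppm1l and Tspan14), against 1.67% of all peaks. FP libraries were wholly below IL2 at 3 of 9, against 4.81%. At Gad2 the highest FP library, 15.9 CPM, was below the lowest IL2 library, 18.5 CPM. The erythroid list, by contrast, had a median difference of 1.11 over 31 peaks, against 0.02 over all peaks, and its part was not tested. At 16 h the order at the leading peaks was the opposite, as given above. The loci were chosen by large FP rises at 16 h, so that order is a description. Time and date also cannot be told apart. The IL2 peak level at Gad2 was 20.6 ± 2.78 CPM at 0.75 h and 4.13 ± 0.0710 CPM at 16 h, beside PBS means of 5.33 and 2.67 CPM.

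At 72 h after FP no leading peak passed the test, yet all 9 had their 3 FP libraries above their 3 PBS libraries, against 5.96% of all tested peaks. None of 100480 tested peaks was called in either direction (0% higher). Tspan14 was the highest in fold, at 0.878, 1.89 and 2.22 CPM in PBS and 6.20, 6.76 and 7.07 CPM in FP (1.99 ± 0.35, adjusted p = 0.683). DESeq2 called that peak (adjusted p = 2.8e-04), and so did edgeR with the log2 library total as a covariate (1.92, adjusted p = 0.00913). Ppm1l was at 1.57, 1.38 and 2.70 CPM in PBS and 4.32, 4.57 and 5.96 CPM in FP (1.37 ± 0.34, adjusted p = 0.930). Gad2 had the smallest change of the 9, at 4.61, 4.14 and 5.37 CPM in PBS and 7.42, 7.40 and 5.53 CPM in FP (0.52 ± 0.25, adjusted p = 0.930). The highest PBS and the lowest FP library nearly met there. At an unadjusted p under 0.05, 7 of 9 were higher (not Gad2 and Gm18726), against 2.43%. The B cell sum was 11.6 to 15.6 CPM in FP and 9.88 to 11.5 CPM in PBS at 72 h. The Gata1 promoter was at 5.09 to 9.07 CPM in FP and 2.66 to 5.07 CPM in PBS. Over 31 tested peaks of the erythroid list the median log2 fold change was 0.11, against -0.03 over all peaks, with none called. The part of B cell or erythroid signal was not tested.

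By fold of the PBS mean, the loci stood in another order at 72 h than at 16 h. Gad2 went from 10.3-fold to 1.44-fold the PBS mean, Gm18726 from 11.3-fold to 1.60-fold and Tspan14 from 6.17-fold to 4.02-fold. Lrpap1, at 2.58-fold and 1.71-fold, moved less. The 16 h folds come from the libraries that chose the loci, and such a choice favours smaller folds at other times. The Gm18726 fold at 16 h also rests on few reads, with 6 to 17 counts in the PBS libraries. The PBS means also differed between 16 h and 72 h, at 2.67 and 4.71 CPM for Gad2 and 0.488 and 1.18 CPM for Gm18726. These folds are therefore a description and no measure of decay. The difference between the FP effects at 72 h and at 0.75 h was tested in a fit of all 31 libraries, and none of the 9 passed (0% of tested peaks passed in either direction, and none of the 9 had an unadjusted p under 0.05).

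By 168 h the FP and PBS libraries overlapped at all 9 leading peaks, while FP was wholly higher at 3.63% of all tested peaks. None was called, with 0% of 102580 tested peaks called and none of the 9 at an unadjusted p under 0.05. Gad2 was at 2.08, 4.09 and 3.80 CPM in PBS and at 4.78, 4.19, 1.54 and 2.60 CPM in FP. Tspan14 was at 1.19, 2.39 and 0.516 CPM in PBS and at 2.49, 5.21, 2.74 and 2.21 CPM in FP (1.22 ± 0.57, adjusted p = 0.899). The 9 log2 fold changes ran from -0.24 at Gm43674 to 1.22 at Tspan14, and 6 of the 9 changed sign in at least 1 alternative fit. PBS replicate 1 had 2 to 33 counts at these peaks.

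**Figure D3:**
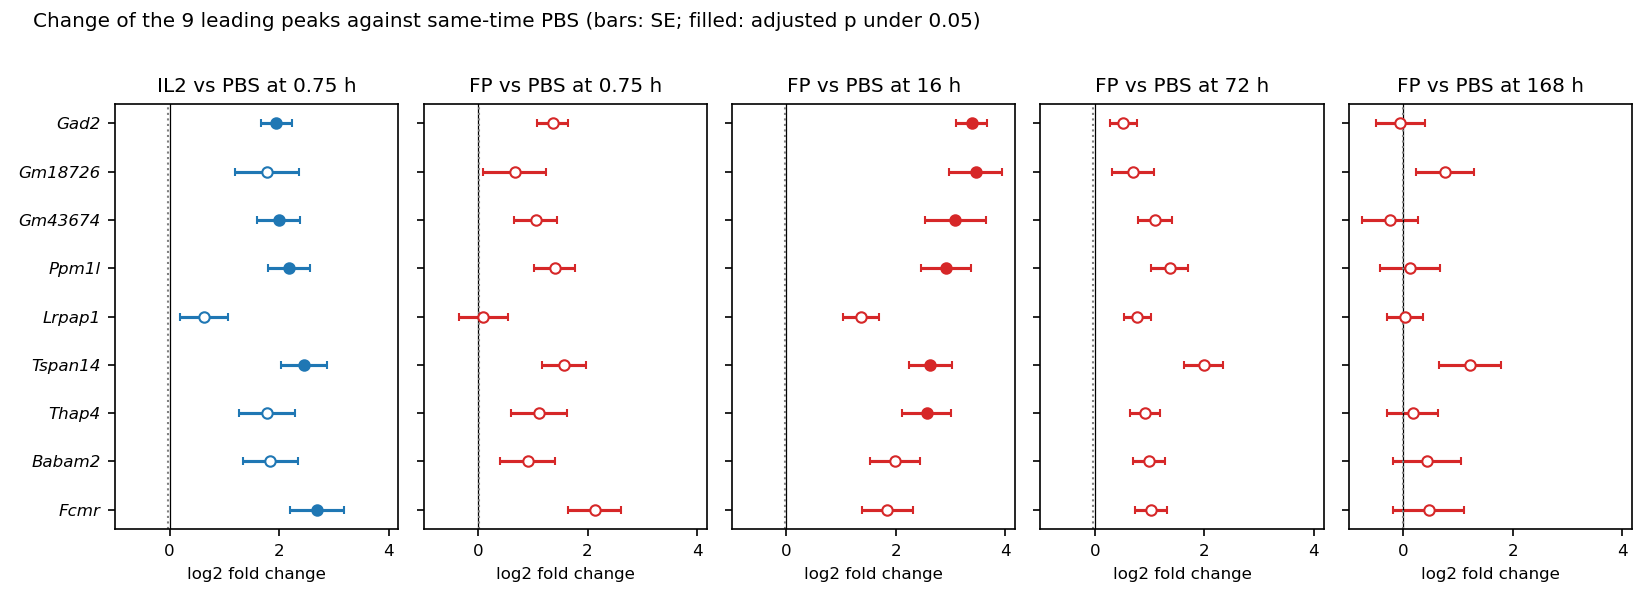
Log2 fold change of the 9 leading peaks against same-time PBS in 5 comparisons; points are edgeR estimates, bars their SE, filled points an adjusted p under 0.05, dotted lines the median of all tested peaks. All 9 are above 0 in the first 4 panels, and they lie between -0.24 and 1.22 at 168 h.

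The leading peaks lay below the median level of all tested peaks in each of the 4 PBS groups. In PBS at 0.75 h, levels per length ran from 1.75 CPM per kb at Fcmr to 5.90 at Gad2, with a median of 6.71 over all tested peaks. Gm18726, Ppm1l, Tspan14, Thap4, Babam2 and Fcmr lay at percentiles 4.24 to 9.24 of all tested peaks. Gad2, Gm43674 and Lrpap1 lay at percentiles 39.2 to 43.5. That division did not hold in the other PBS groups. Gad2 was at 2.96 CPM per kb and percentile 10.4 at 16 h, percentile 28.4 at 72 h and percentile 12.2 at 168 h. Gm43674 was at percentiles 4.77, 28.0 and 33.3 at these times, and Thap4 and Fcmr reached percentiles 31.6 and 20.0 at 72 h. Lrpap1 stayed at percentiles 37.6 to 48.7. After IL2 at 0.75 h, Gad2 was at 22.9 and Gm43674 at 21.8 CPM per kb, at percentiles 91.7 and 90.9, followed by Fcmr at 11.2 and Tspan14 at 10.6. A choice by large fold changes favours peaks with low starting levels, so this is a description.

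Over the other regions of these genes, none of 124 peaks was called after IL2 at 0.75 h, which is near the background of 0.488%, and their median log2 fold change was -0.06. At an unadjusted p under 0.05, 5 of those 124 were higher, against 3.54% of all tested peaks. None of 124 was called after FP at 0.75, 72 or 168 h, where 0.00199%, 0% and 0% of all peaks were called higher. At Lrpap1 the leading peak was 1 of 10 peaks that merge into 1 region, so those peaks are not separate measurements. The 124 other peaks lay in 74 regions, so overlapping peaks are counted more than once there as well.

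A promoter peak was present at 7 genes, and none of the 7 was called in any of the 7 comparisons, with log2 fold changes of -0.21 to 0.51 for IL2 at 0.75 h. At most 0.488% of all tested peaks were called higher in any of these comparisons, so 0 of 7 is near the background. The Gad2 promoter peak was at 5.74 ± 1.39 CPM in PBS and 8.18 ± 0.919 CPM in IL2 at 0.75 h (n = 3 each), a change of 0.51 ± 0.29 (adjusted p = 0.981). At 16 h it was at 6.57 ± 1.65 CPM in PBS and 11.3 ± 0.374 CPM in FP. The promoters of Tspan14 and Ppm1l were open in every group, at 51.0 ± 6.99 and 44.4 ± 5.39 CPM in PBS at 0.75 h. The promoter peak used for Thap4 is shared with Atg4b, and that of Babam2 with Rbks.

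Within 100 kb of the 9 leading peaks, the table held 172 other peaks. After IL2 at 0.75 h, 1 of 168 tested neighbours was called, close to the background of 0.488%. It was a peak in an intron of Sh2d4b, 13.4 kb from the Tspan14 peak (1.81 ± 0.32, adjusted p = 0.0112). At 8 of 9 loci no neighbour had a larger log2 fold change than the leading peak, the exception being Lrpap1. At Fcmr the margin was small, with a neighbour at 2.64 ± 1.34 and the leading peak at 2.69. After FP, the loci with no higher neighbour were 5 of 9 at 0.75 h, 7 at 72 h and 1 at 168 h. For FP at 16 h, where the leading peaks were chosen, 1 of 169 neighbours was called, with 0.114% called over all peaks. It was an intergenic peak assigned to Gm13338, 41.6 kb from the Gad2 peak (1.02 ± 0.20). A sparse peak in an intron of Gad2, near the leading peak, was higher than it in fold (3.85 ± 1.38), with an SE too large for a call.

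**Figure D4:**
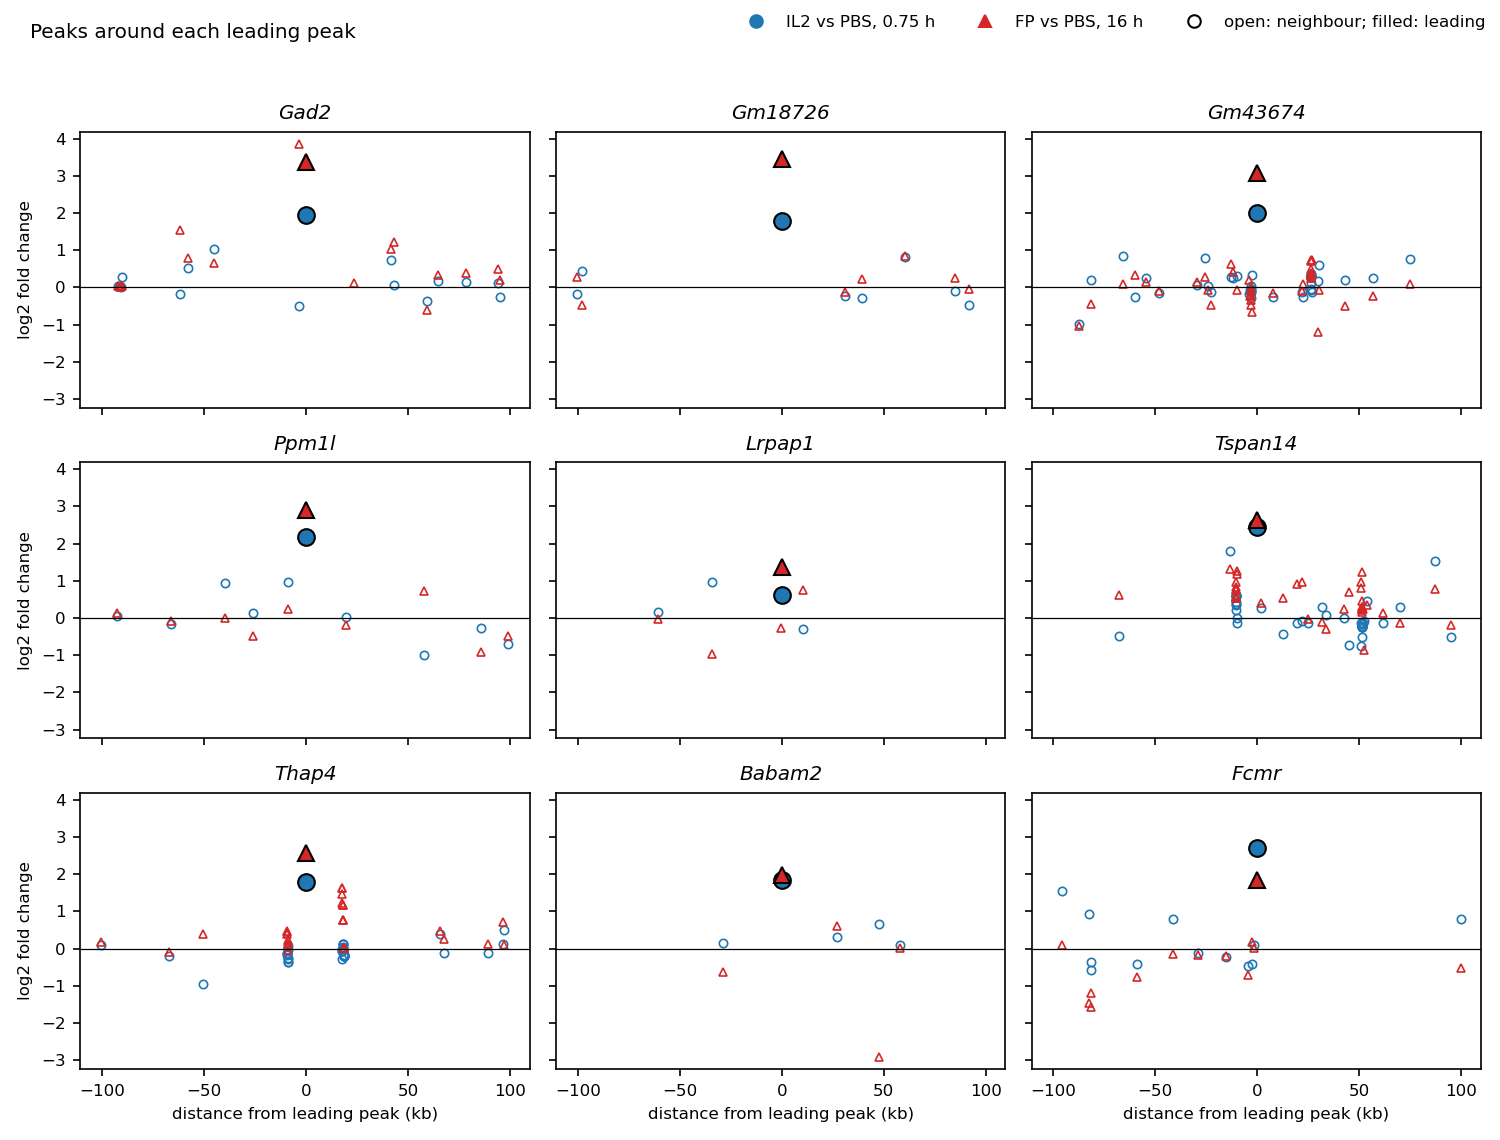
Log2 fold change (y axis) of all peaks within 100 kb of each leading peak (x axis, distance in kb), for IL2 at 0.75 h (blue circles) and FP at 16 h (red triangles), both against PBS; filled symbols are the leading peaks. The leading peak stands above its neighbours at 8 of 9 loci in each comparison; the exceptions are Lrpap1 for IL2 and Gad2 for FP.

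Peaks at other genes had time courses like that of the Gad2 peak. Likeness was measured by Pearson's r over the 31 libraries, on log2 CPM minus the mean of the same-time PBS libraries, among 53779 peaks of sufficient level. The closest were peaks in introns of Mbd5 (r = 0.916), Ammecr1 (r = 0.883) and Gm35330 (r = 0.882), in an exon of Cmya5 (r = 0.889) and at the promoter of Naf1 (r = 0.888). All 5 held the palindrome TTCNNNGAA, with 1 to 3 matches, against 13.3% of all peaks with at least 1. Some of the 5 were wider than any leading peak, and that share was not matched for width. Their log2 fold changes after IL2 at 0.75 h were 0.92 ± 0.17 at Mbd5, 1.65 ± 0.25 at Cmya5, 1.00 ± 0.19 at Naf1, 1.60 ± 0.40 at Ammecr1 and 1.01 ± 0.22 at Gm35330. The same libraries chose these peaks, so the values are a description, with no test. Among the other leading peaks, Gm43674 was most like Gad2 (r = 0.864) and Fcmr least (r = 0.601). The libraries share their groups and depth, so these correlations are descriptions.

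Genes of the same pathways were read from lists of relatives of the 9 genes. After IL2 at 0.75 h, none of 58 tested peaks at 15 GABA receptor genes was called. The same held for 96 peaks of PP2C phosphatases, 79 of the LDL receptor family, 67 of ADAM10 and the related tetraspanins, 12 of THAP domain genes, 18 of the BRCA1-A and BRISC subunits and 71 of Fc receptors and neighbours of Fcmr. Medians of the last 6 lists ran from -0.22 to 0.01, against -0.02 over all peaks. Among 14 textbook IL-2 and STAT5 target genes, 8 of 154 peaks were called higher, against 0.488% of all peaks, and none lower, at Bcl2, Cdk6 and Lta. The lowest adjusted p was at a peak of Bcl2, an inhibitor of apoptosis (2.14 ± 0.22, adjusted p = 2.9e-04). That peak was also 1 of the 2 peaks called anywhere after FP at 0.75 h (1.69 ± 0.22, adjusted p = 0.0175). For FP at 72 h and at 168 h no peak of any of these lists was called.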

How the data were processed

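Groups were taken from the sample titles, since the labels' treatment protocol names a single time, 0.75 h. At 16 h the table's columns name the group but not the title's number, so those libraries are called c1 to c3. Per the series design text, the authors mapped reads with bwa-mem to GRCm38, called peaks with MACS and filtered them for reproducibility (IDR) across 2 pseudo-replicates per sample. Per the submitters' processing notes, MACS2 was version 2.1.2. For read counting, duplicate handling and peak merging, no source used here gives the method. In the deposited table, values are raw counts per peak and library, with no normalization. One deposited column is recorded under the unit other: it holds counts as well, but gene lists with commas displace it on 9561 lines, which were therefore split from the right. All per-sample columns could be mapped (0 left over). Technical replicates, 2 per biological sample per the labels, are not separate in the table.

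Each time point was fitted in edgeR 4.0.16 (R 4.3.3) with all its groups, TMM factors, filterByExpr (minimum count 10, minimum total 15) and the quasi-likelihood F test. Benjamini-Hochberg adjustment covered all peaks tested in a comparison, and calls needed an adjusted p under 0.05. The residual degrees of freedom were 6, 6, 4 and 5 at 0.75, 16, 72 and 168 h. SE values are the absolute log2 fold change over the square root of the F statistic. CPM used the TMM-scaled library size, and log2 CPM a prior count of 2. Of the 142 peaks of these genes, 141 passed the filter at 0.75 and 16 h and 142 at 72 and 168 h, the 9 leading peaks among them. The scripts were tested on simulated data. Alternatives were library totals or DESeq2 (1.42.0) size factors as scaling, no filter, DESeq2's Wald test, the library total as a covariate, other sets of libraries and a replicate block. The fit without both 168 h libraries of lowest total, and the difference of effects between times, were added after the data were seen. Sequences were read from the GRCm38 genome with pysam 0.24.0, and matches were sought on both strands. Peaks like that of Gad2 were the 5 of highest r at 5 other genes, with a mean log2 CPM of at least 1. From each list at most the 3 peaks of lowest adjusted p are named. The genes, the lists and the leading peaks were chosen with earlier results of these data known, so the lists carry no independent support. A summed marker level adds the strongest promoter peak of each gene. A few list and marker results are not reported here.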

Additional observations from a re-analysis of the deposited data

Results flagged for a closer look

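At the Thap4 leading peak, 1 of the 4 FP libraries at 168 h stood apart from the others. It was at 3.54 CPM, with the other 3 at 1.50 to 1.75 CPM, and its gap of 0.873 of the group's range is above Dixon's critical value for 4 libraries. The library was FP replicate 2, which had the lowest total of its group (12.3 M counts). Over the 9 leading peaks, 9 such groups were examined, and chance flags about 1 group in 20.

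At 3 leading peaks the IL2 libraries were all above the PBS mean at 0.75 h and all below it at 16 h, in log2 CPM. At Fcmr they were 2.30 to 3.00 above at 0.75 h and between -2.76 and -0.512 at 16 h. At Babam2 they were 1.09 to 2.19 above and between -1.44 and -0.441. At Lrpap1 they were 0.103 to 0.999 above and between -0.525 and -0.0145, the last of which is close to 0. In the fit of all 31 libraries, the IL2 effect at 16 h minus that at 0.75 h was -3.82 ± 0.78 (SE) at Fcmr, -2.87 ± 0.71 at Babam2 and -0.82 ± 0.51 at Lrpap1. With adjustment over all peaks none passed (edgeR; adjusted p = 0.0547, adjusted p = 0.197 and adjusted p = 1.000), against 0.0411% of peaks that passed with a lower effect at 16 h. This difference was below 0 at 8 of the 9 leading peaks, so a lower effect at 16 h was not particular to these 3. At Tspan14 it was -2.61 ± 0.66. At an unadjusted p under 0.05 there were 4 of the 9, against 5500 of 104520 tested peaks in either direction. The 16 h libraries also chose these loci, so the values are a description.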

How the results depend on the processing

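In the comparisons with PBS at 0.75 h, with IL2 at 0.75 h and with PBS after FP at 16 and 72 h, the values of the 9 leading peaks kept their direction in every alternative except at Lrpap1 for FP at 0.75 h. That value, 0.10, was -0.71 with the library total as a covariate, -0.11 without FP replicate 1, -0.10 without FP replicate 2 and -0.22 without PBS replicate 2, and its range was -0.22 to 0.43 over all fits that left out 1 library. The cause was not tested. The count of called peaks was 5 for IL2 at 0.75 h and ran from 1 to 5 when 1 library was left out. For FP at 0.75 h the count was 0, and 2 with DESeq2. For FP at 16 h it was 6 of the leading peaks, 9 with DESeq2, and 3 to 6 when 1 library was left out. Over all peaks of these genes DESeq2 called 17 there, which includes overlapping peaks of Lrpap1. For FP at 72 h it was 0, and 1 with DESeq2 and 1 with the library total as a covariate, both times Tspan14. The counts for FP against IL2 at 0.75 h, IL2 at 16 h and FP at 168 h were 0 in every alternative, including without both 168 h libraries of lowest total. The replicate block changed the count from 5 to 6 for IL2 at 0.75 h and from 0 to 1 for FP at 0.75 h (Gad2, adjusted p = 0.0110). Same-numbered libraries correlated at 0.00379 to 0.242 at 0.75 h, -0.190 to 0.584 at 72 h and -0.228 to 0.416 at 168 h. Over all pairs these values of r took both signs and are no measure of how alike whole library profiles were. They serve only to compare pairs of the same number with pairs of different numbers. Libraries of different numbers reached 0.578 at 72 h and 0.437 at 168 h. At 0.75 h they reached at most 0.0207 (PBS and IL2), 0.0612 (PBS and FP) and 0.0211 (IL2 and FP). There 6 of 6, 4 of 6 and 5 of 6 libraries correlated best with their own number. The main fits did not pair samples by number, and whether the numbers pair samples at 0.75 h was not settled. The calls at 0.75 h depend on that choice. At 16 h no block could be fitted, since the columns do not carry the titles' numbers. Across all tested peaks, DESeq2 called 1007 higher after IL2 at 0.75 h (490 in edgeR), 213 after FP at 0.75 h (2), 433 after FP at 16 h (115), 70 at 72 h (0) and 45 at 168 h (0). The block called 941 and 127 higher in the 2 comparisons with PBS at 0.75 h. Counts at single leading peaks ran from 2 to 962 per library, which limits the precision of the low groups.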
